A study of Mus musculus with 2 samples.

Results

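The genes described here are the replication-dependent histone genes of the mouse, whose symbols begin Hist1h, Hist2h or Hist3h after the genome clusters that hold them. They were selected on measured counts: of the 66 gene rows with such a symbol, the 56 that reached 50 UMIs (unique molecular identifiers, 1 per captured RNA molecule) over all barcodes with at least 500 genes and at most 10% mitochondrial UMIs in both libraries were kept, out of 32285 gene rows in all. Just inside this minimum were Hist1h2bl with 58 UMIs, Hist1h4n with 78 and Hist1h4b with 83. Just outside it were Hist1h4f with 32, Hist1h3h with 27 and Hist1h2ah with 20. Because a gene could reach 50 UMIs through dividing cells alone, counts over the 56 members below describe the members and are not evidence that histone genes as a class respond to division.

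In the study, wild-type mouse embryos received the thymidine analogue EdU at E12 and the pups were killed at P3. The pallium (the dorsal telencephalon, which forms the cortex) was dissected and pooled. Cells that excluded propidium iodide and fell among the 10% brightest for EdU were sorted on a FACS Jazz and captured with 10x Chromium Single Cell 3′ v3.1 chemistry. There is 1 group with 2 libraries, called replicate 1 and replicate 2, and no untreated or unlabelled control is analysed here. Whether each library had its own pups is not in the labels. The p-values of the main test below measure only the spread left between these libraries once each gene's mean difference between them is removed. That spread is estimated over all sums of a model together and may be technical.

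The deposited matrices held 13858 barcodes in replicate 1 and 14513 in replicate 2, with 97091962 and 108903409 UMIs. After the filters above and removal of barcodes called as doublets (862 and 778), 10366 and 10187 cells remained, with median depths of 7273 and 8292 UMIs. The libraries shared 62 barcodes, of which 34 were among the kept cells of both. Cells were classed by gates on UMIs: oligodendrocyte precursor cells (OPCs) by Pdgfra, astroglia by Slc1a3, GABAergic cells by Dlx1 and Dlx2, neurons by Neurod2 and Neurod6, and microglia by complement and receptor genes. Within each class, cells with at least 3 UMIs of Mki67 and Top2a together are called dividing and cells with 0 are called resting. Each gate held UMIs of all 6 of its marker genes in resting cells of replicate 1. The OPC markers summed to 5212 and 5186 CPM (UMIs scaled to the same library total) in dividing OPCs, where the 6 astroglial markers, some of them shared with precursors, summed to 7278 and 7658 CPM. Dividing neurons matched their label least: in replicate 1 the 6 glutamatergic markers summed to 668 CPM in dividing against 1507 in resting neurons, Slc17a7 was at 0, and the 6 astroglial markers summed to 4577 against 2367 CPM. In replicate 2 the glutamatergic markers summed to 496 CPM in dividing and 1531 in resting neurons. There 3 endothelial markers (Cldn5, Flt1 and Pecam1) summed to 795 CPM in dividing neurons, above the glutamatergic sum. They were at 1.285 CPM in resting neurons of replicate 2 and at 0 in dividing neurons of replicate 1. Before removal, doublet calls took 33.3% and 27.0% of dividing neurons, against 12.8% and 11.3% of dividing OPCs, and the part of doublets in the neuron values was not tested.

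Histones package DNA. The core histones H2A, H2B, H3 and H4 form the spool of the nucleosome, and the linker histone H1 binds the DNA between nucleosomes. The replication-dependent genes are transcribed mainly in S phase, when new DNA must be wrapped, under NPAT at histone locus bodies. Their mRNAs normally end in a stem-loop bound by SLBP (stem-loop binding protein) in place of a poly(A) tail, and decay when DNA synthesis stops. A 3′ single-cell library primes on poly(A), so UMIs of these genes count only molecules that could be primed: polyadenylated transcripts or transcripts with internal runs of A. CPM of these genes are therefore not measures of total histone mRNA.

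The 56 members comprised 45 genes of the Hist1 cluster on chromosome 13, 9 of the Hist2 cluster on chromosome 3 and 2 of the Hist3 cluster on chromosome 11 (GENCODE M21, GRCm38). Linker H1 was represented by Hist1h1a, Hist1h1b, Hist1h1c, Hist1h1d and Hist1h1e. The 14 H2A genes were Hist1h2ab, Hist1h2ac, Hist1h2ad, Hist1h2ae, Hist1h2af, Hist1h2ag, Hist1h2ai, Hist1h2ak, Hist1h2an, Hist1h2ap, Hist2h2aa1, Hist2h2ab, Hist2h2ac and Hist3h2a. The 16 H2B genes were Hist1h2bb, Hist1h2bc, Hist1h2be, Hist1h2bf, Hist1h2bg, Hist1h2bh, Hist1h2bj, Hist1h2bk, Hist1h2bl, Hist1h2bm, Hist1h2bn, Hist1h2bp, Hist1h2br, Hist2h2bb, Hist2h2be and Hist3h2ba. The 11 H3 genes were Hist1h3a, Hist1h3b, Hist1h3c, Hist1h3d, Hist1h3e, Hist1h3f, Hist1h3g, Hist1h3i, Hist2h3b, Hist2h3c1 and Hist2h3c2. The 10 H4 genes were Hist1h4a, Hist1h4b, Hist1h4c, Hist1h4d, Hist1h4h, Hist1h4i, Hist1h4j, Hist1h4k, Hist1h4n and Hist2h4. The 8 members with the most UMIs were Hist1h2ap (60388 over both libraries), Hist3h2ba (41956), Hist1h2ae (26374), Hist1h1b (24739), Hist1h1e (20019), Hist1h4d (11786), Hist3h2a (10901) and Hist1h2bc (10169).

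The stem-loop that ends a replication-dependent histone mRNA was found by its pattern in the longest annotated transcript of 39 of the 56 members. Counting any annotated transcript it was found in 40 members and took 8 distinct forms of 16 bases, of which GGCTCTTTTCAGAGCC was carried by 24. The following stretches show it for members of both behaviours described below, those high in dividing cells (Hist1h2ap, Hist1h2ae, Hist1h4d, Hist1h3c) and the pair that was not (Hist3h2ba, Hist3h2a), 5′ to 3′ as DNA of the sense strand (GENCODE M21 transcripts, GRCm38), with the stem-loop in capitals.
Hist1h2ap: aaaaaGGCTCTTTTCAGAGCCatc
Hist1h2ae: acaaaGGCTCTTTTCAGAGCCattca
Hist1h4d: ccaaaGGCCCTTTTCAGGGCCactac
Hist1h3c: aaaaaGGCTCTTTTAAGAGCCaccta
Hist3h2ba: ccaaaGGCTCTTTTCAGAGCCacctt
Hist3h2a: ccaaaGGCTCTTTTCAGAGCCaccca
Hist3h2ba and Hist3h2a thus carried the same 16 bases as Hist1h2ap. What follows the stem-loop in the annotation differed: 3 annotated bases in Hist1h2ap, 74 in Hist1h3c, 151 in Hist1h2ae, 169 in Hist3h2ba, 770 in Hist1h4d and 1643 in Hist3h2a. No match was found in the annotated transcript of Hist1h1b or Hist1h2bc, which says only that these letters are not in that annotation. Hist1h2ap (chr13:21833026-21833507, minus strand) held a run of 12 A, the longest in its transcript. The longest run was also 12 A in Hist1h2ao, which had 13 UMIs and is not a member. It was 15 A in Hist1h2ac, with 1225 UMIs, and 6 A in Hist1h1b, with 24739 UMIs. The part of such runs in the counts was not tested.

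Upstream sequences from RefSeq (GRCm38.p6) were matched for 50 members. Within the 300-base window from 250 bases before to 50 after the start, both strands were searched for 4 motifs. CCAAT and TATAAA are general promoter elements. The octamer ATTTGCAT is known from H2B promoters. The AC box, AAACACA, is known from H1 promoters. CCAAT stood in 44 of the 50 windows (88.0%) against 37.4% of the 32851 promoters in the table. TATAAA stood in 28 (56.0% against 13.6%), the octamer in 10 (20% against 1.74%) and the AC box in 5 (10.0% against 7.18%). By family, the AC box stood in 3 of 4 H1 windows, the octamer in 5 of 14 H2A and 5 of 14 H2B windows and in none of the 9 H3 or 9 H4 windows, and CCAAT in 3 of 9 H4 windows against all windows of the other families. Windows of neighbouring H2A and H2B genes can overlap, so the same site can count in both families. The octamer of Hist1h2ae and Hist1h2bg was such a site. The 150 bases before the start are shown for 4 genes whose levels are compared below, with these motifs in capitals on either strand.
Hist1h2ap, chr13:21833476-21833625, minus strand: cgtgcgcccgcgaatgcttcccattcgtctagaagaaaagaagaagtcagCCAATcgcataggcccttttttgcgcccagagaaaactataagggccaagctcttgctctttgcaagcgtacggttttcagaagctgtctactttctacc
Hist1h1b, chr13:21780626-21780775, minus strand: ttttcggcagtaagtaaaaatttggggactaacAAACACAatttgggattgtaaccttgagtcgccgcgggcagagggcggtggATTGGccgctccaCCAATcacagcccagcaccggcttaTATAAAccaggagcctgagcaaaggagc
Hist3h2ba, chr11:58948761-58948910, plus strand: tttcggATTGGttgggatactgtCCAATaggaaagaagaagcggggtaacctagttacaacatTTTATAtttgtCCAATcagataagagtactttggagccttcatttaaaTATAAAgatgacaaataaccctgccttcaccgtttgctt
Hist3h2a, chr11:58954535-58954684, plus strand: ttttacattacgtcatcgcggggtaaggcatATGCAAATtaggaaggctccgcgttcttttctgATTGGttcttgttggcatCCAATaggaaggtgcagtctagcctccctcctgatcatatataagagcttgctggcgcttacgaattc
All 4 windows held CCAAT on at least 1 strand. The octamer stood upstream of Hist3h2a and the AC box upstream of Hist1h1b. A match of letters is a description and was not tested as a binding site.

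Dividing cells carried most of the histone UMIs. They made up 14.6% of kept cells in replicate 1 and 15.7% in replicate 2, and 25.3% and 25.8% of all UMIs, but 66.1% and 66.8% of the UMIs of the 56 members. For Hist1h2ap, an H2A gene, the share in dividing cells was 90.1% and 91.9%. For Hist1h3c, an H3 gene, it was 96.1% and 96.4%. For Hist3h2ba and Hist3h2a the shares were 17.7% and 18.9%, and 17.9% and 19.1%, below the share of all UMIs.

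The summed level of the members was higher in dividing than in resting cells of all 5 classes in both libraries. In dividing OPCs it was 3197 CPM in replicate 1 and 2893 in replicate 2, a mean of 3045 ± 215 (SD, n = 2), against 579 and 502 in resting OPCs, a mean of 541 ± 54.5. Dividing astroglia reached 3192 and 2541 CPM (2867 ± 460), against 556 and 440 (498 ± 82.1) at rest. GABAergic cells stood highest in both states, at 5708 and 5007 CPM (5358 ± 495) dividing and 1276 and 1180 (1228 ± 68.0) resting. The dividing and resting libraries did not overlap in any of these 3 classes, and the GABAergic libraries lay above those of OPCs and astroglia within each state.

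Neurons and microglia held few dividing cells. The 24 and 27 dividing neurons had 3550 and 2615 CPM (3082 ± 661), against 933 and 833 (883 ± 71.0) in the 879 and 889 resting neurons. The 18 and 31 dividing microglia, the resident macrophages of the brain, had 1539 and 894 CPM (1216 ± 456), the lowest of the dividing classes. Resting microglia had 453 and 362 CPM (408 ± 64.4). The sums are a description of chosen genes and carry no test. Fewer transcribing cells and less RNA per cell cannot be told apart in such sums. Dividing cells were also deeper: median UMIs were 12864 and 13567 in dividing against 7747 and 8545 in resting OPCs, and 10456 and 11217 against 4794 and 5620 in GABAergic cells.

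**Figure D1:**
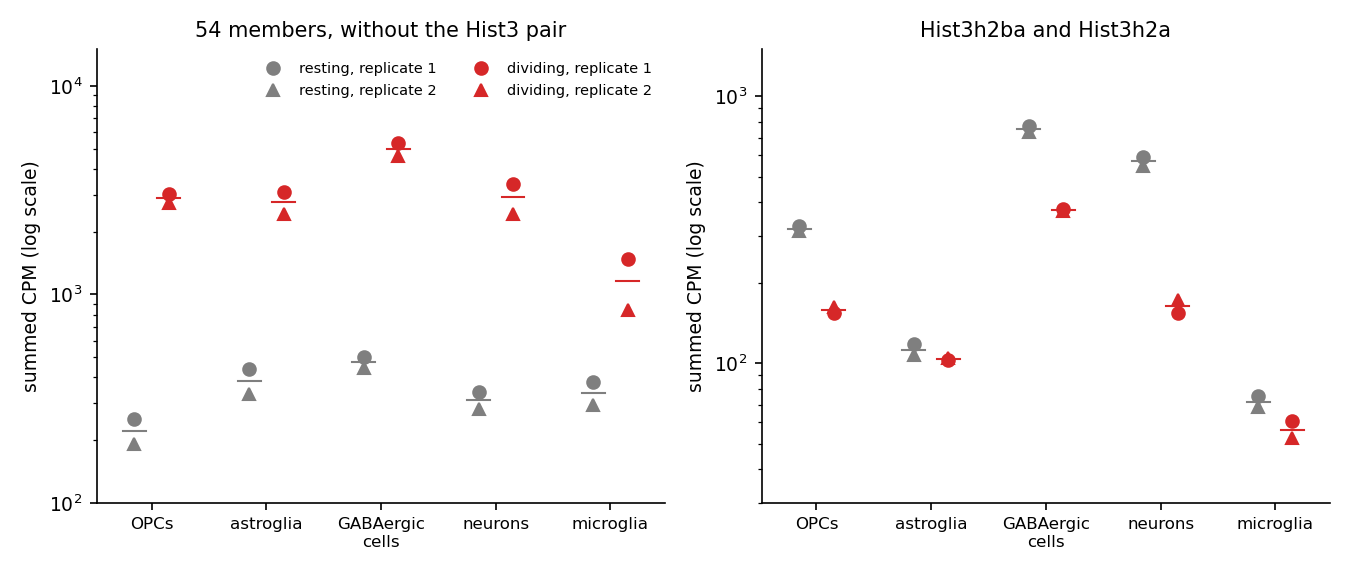
Summed CPM (log scale) of the 54 members without Hist3h2ba and Hist3h2a (left) and of that pair (right), in dividing (red) and resting (grey) cells of 5 classes; each point is 1 library (circle replicate 1, triangle replicate 2) and each bar the mean. On the left dividing points lie above resting points in every class, and on the right they lie below them in every class, by the least in astroglia and microglia.

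The size of this difference depended on whether the Hist3 genes were counted. Over all members the ratio of dividing to resting CPM was 5.52 and 5.76 in OPCs, 5.74 and 5.78 in astroglia, and 4.47 and 4.24 in GABAergic cells. Without Hist3h2ba and Hist3h2a it was 12.01 and 14.3 in OPCs, 7.05 and 7.32 in astroglia, and 10.6 and 10.4 in GABAergic cells. In resting OPCs the pair alone made up 56.3% and 62.1% of member UMIs, and in dividing OPCs 4.83% and 5.60%. In resting neurons the pair made up 63.7% and 66.0%.

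The core families differed in their sums. H2A went from 118 and 114 CPM in resting to 1556 and 1728 CPM in dividing OPCs, a ratio of 13.2 and 15.1. H3 had a ratio of 11.3 and 12.2, linker H1 of 9.82 and 9.53, and H4 of 6.40 and 6.30. The H2B sum was nearly level, at 0.967 and 0.923 times, with Hist3h2ba included. In GABAergic cells the H2B ratio was 1.005 and 0.872, and in astroglia 1.98 and 1.75.

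Gene by gene, between 38 and 48 of the 53 tested members rose in dividing cells, depending on the class. The test was edgeR's quasi-likelihood test on UMIs summed per library, class and state with the library as a block, and Benjamini-Hochberg adjustment over all genes at 0.05. It could be run on 53 members, since Hist1h4b, Hist1h4n and Hist1h2bl fell under its filter on low counts. In OPCs 47 members were higher and 2 lower in dividing cells, where 15.9% of all tested genes were higher and 20.6% lower. Their median log2 fold change was 3.34, against -0.08 over all genes tested. In astroglia 45 were higher and 1 lower (25.4% and 24.6% of all genes), with a median of 2.84 against -0.04.

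GABAergic cells had 48 members higher and 2 lower (18.8% and 17.7% of all genes), with a median of 3.39 against -0.04. Neurons had 38 higher and 2 lower (13.4% and 13.9%), with a median of 3.09 against -0.14. With DESeq2 in place of edgeR, 2312 genes were higher and 1587 lower in dividing neurons in place of 1956 and 2021. The median of all genes moved from -0.14 to -0.02, and the member counts were 41 and 2. With edgeR and RLE factors, where only the scaling changed, 2039 genes were higher and 1891 lower. The median was then -0.10 and the member counts were 39 and 2. In all, 36 of the 53 tested members were higher in dividing cells of all 4 classes and 49 in at least 1. The 4 that were higher in none were Hist2h3c1, Hist2h3c2, Hist3h2a and Hist3h2ba. The matching shares over all genes were not computed, so these counts across classes describe the members only. Dividing microglia were not tested, because replicate 1 held 18 of them and the minimum was 20. In astroglia the scaling moved the background: with RLE factors 2776 genes were higher and 4839 lower in place of 3689 and 3572. There the median of all genes moved from -0.04 to -0.19, and the member counts stayed at 45 and 1.

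**Figure D2:**
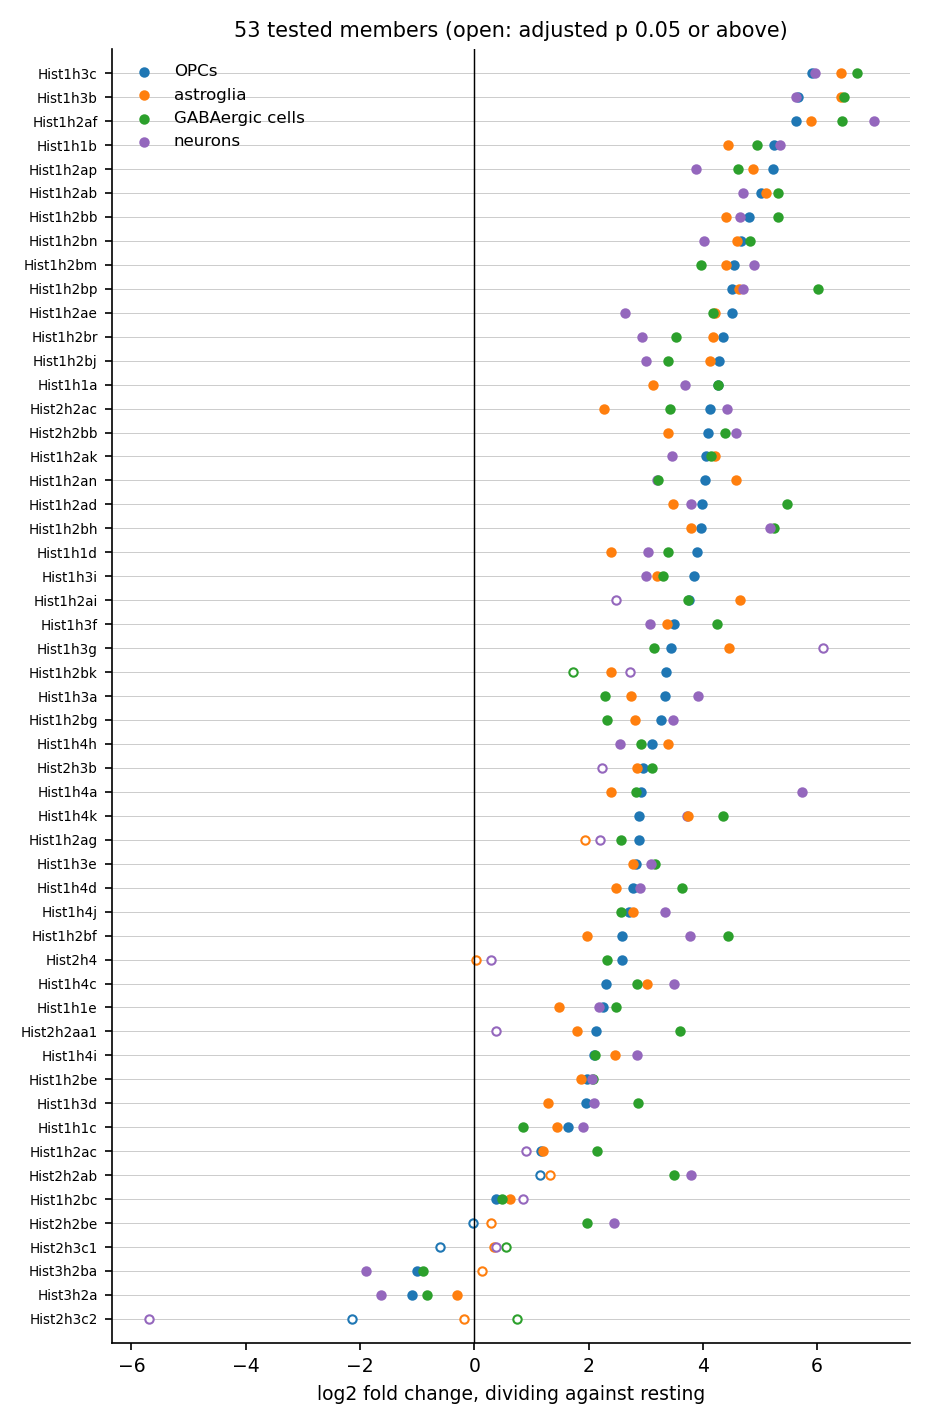
Log2 fold change of each of the 53 tested members, dividing against resting, in 4 cell classes (colours); filled points passed edgeR's test at an adjusted p of 0.05 and open points did not. Hist3h2a and Hist3h2ba lie left of 0 in OPCs, GABAergic cells and neurons, while most other members lie between 2 and 6; the neuron points of Hist2h3c2 and Hist1h3g rest on a state with 0 UMIs in both libraries and their size has no meaning.

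The largest change in dividing OPCs was that of an H3 gene. Hist1h3c stood at 64.5 and 57.7 CPM in dividing OPCs against 1.07 and 0.90 in resting OPCs. Its log2 fold change was 5.92 (SE 0.14, edgeR adjusted p = 6.945e-33) in OPCs, 6.42 (SE 0.17) in astroglia, 6.70 (SE 0.22) in GABAergic cells and 5.97 (SE 0.44) in neurons. In GABAergic cells that was a step from 0.96 and 1.14 CPM to 112 and 93.7 CPM. Hist1h3b, a second H3 gene, had 10.1 and 9.85 CPM in dividing OPCs against 0.32 and 0.05, a log2 fold change of 5.66 (SE 0.36, edgeR adjusted p = 3.404e-17). In astroglia and GABAergic cells Hist1h3b changed by 6.41 (SE 0.45) and 6.48 (SE 0.47). Both genes were low outside division in these classes.

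Among H2A genes, Hist1h2ap was at 981 and 1207 CPM in dividing OPCs and at 27.4 and 29.98 in resting OPCs. The change was 5.24 on the log2 scale (SE 0.07, edgeR adjusted p = 6.317e-42). In GABAergic cells Hist1h2ap was at 1394 and 1722 CPM dividing and 66.4 and 71.6 resting, a change of 4.62 (SE 0.07). The groups were far apart in both libraries. Hist1h2ap shares 93.4% of its 31-base words with other genes, closest to Hist1h2ao, so its assignment by the authors' counting is uncertain. The same limit holds for other members, of which 32 of the 56 share over 50% of these words. Among them are Hist1h3c (55.2%), Hist1h3b (61.9%), Hist1h2ab (63.0%) and Hist1h2af (85.9%).

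Hist1h2ae was at 431 and 400 CPM in dividing OPCs against 18.8 and 17.5, a log2 change of 4.503 (SE 0.08, edgeR adjusted p = 6.000e-38). Hist1h2af was at 16.2 and 6.71 CPM against 0.32 and 0.09, a change of 5.63 (SE 0.32), changed by 5.90 (SE 0.33) in astroglia and 6.43 (SE 0.34) in GABAergic cells, and in neurons its change of 6.99 (SE 0.62) rested on 17 and 11 UMIs against 1 and 2. Hist1h2ab changed by 5.11 (SE 0.24) in astroglia, from 0.83 and 0.47 to 22.7 and 19.5 CPM. Of the 14 H2A genes 12 were higher in dividing OPCs, and the other 2 were Hist3h2a, which was lower, and Hist2h2ab, at 0.90 and 1.30 against 0.64 and 0.38 CPM, which did not pass. Across the 16 H2B genes, 15 were tested and 13 were higher in dividing OPCs. Hist1h2bp changed by 6.02 (SE 0.71, edgeR adjusted p = 3.296e-09) in GABAergic cells, from 0 and 0.29 to 9.80 and 10.2 CPM.

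All 5 linker histone genes rose in dividing OPCs, astroglia, GABAergic cells and neurons. Hist1h1b went from 14.9 and 6.30 CPM to 487 and 311 CPM in OPCs, a log2 change of 5.25 (SE 0.08, edgeR adjusted p = 5.145e-39), and changed by 5.35 in neurons. Hist1h1e, with 52.5 and 35.5 CPM in resting and 248 and 174 CPM in dividing OPCs, changed by 2.25 (SE 0.06). It overlaps the member Hist1h2be in the annotation, so reads in the overlap cannot be assigned with certainty. Hist1h1c changed least of the 5, by 1.64 (SE 0.09), from 17.6 and 17.0 to 60.5 and 49.8 CPM. Of 10 H4 genes 8 were tested in OPCs, and all 8 rose, with log2 changes from 2.10 to 3.12.

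Hist1h4d, the H4 gene with the most UMIs, was at 168 and 83.8 CPM in dividing and 24.2 and 12.1 in resting OPCs, a change of 2.78 (SE 0.07). Within each library the dividing and resting values lay far apart, although replicate 1 lay above replicate 2 in both states. Hist1h4a in neurons changed by 5.73 (SE 0.65, edgeR adjusted p = 1.445e-09), on 3 and 2 UMIs in resting against 12 and 7 in dividing cells. The H2B gene Hist1h2bc, whose annotated transcript has a second exon, moved little: 38.9 and 36.8 CPM in dividing against 34.95 and 23.6 in resting OPCs, a change of 0.38 (SE 0.11, edgeR adjusted p = 0.003671).

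The Hist3 pair was different in direction. Hist3h2ba (chr11:58948920-58949533, plus strand), an H2B gene, was at 128 and 133 CPM in dividing OPCs and at 265 and 255 in resting OPCs. It fell by 1.00 on the log2 scale in dividing OPCs (SE 0.05, edgeR adjusted p = 4.673e-20). In GABAergic cells it was at 303 and 295 CPM dividing against 621 and 590 resting, and fell by 0.89 (SE 0.05, edgeR adjusted p = 4.225e-18). The resting values lay above the dividing ones in both libraries. In neurons it fell by 1.90 (SE 0.12), from 487 and 452 to 125 and 135 CPM. In astroglia it was at 73.8 and 76.9 CPM dividing and 77.3 and 71.0 resting, with a log2 change of 0.14 (SE 0.07, edgeR adjusted p = 0.08863) that did not pass.

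Hist3h2a (chr11:58954685-58956830, plus strand), the H2A gene beside it, was at 26.9 and 28.6 CPM in dividing and 61.4 and 57.2 in resting OPCs. It fell by 1.10 (SE 0.08, edgeR adjusted p = 7.976e-16) in OPCs, 0.83 (SE 0.08) in GABAergic cells, 1.64 (SE 0.22) in neurons and 0.30 (SE 0.10, edgeR adjusted p = 0.008391) in astroglia. Hist3h2a overlaps the gene Trim17 in the annotation, so reads in the overlap cannot be assigned with certainty. After thinning every cell to 2000 UMIs, Hist3h2ba was seen in 37.9% and 39.2% of resting OPCs and in 19.6% and 23.7% of dividing OPCs, and unthinned in 71.9% and 76.4% against 68.5% and 74.0%. Thinning left out 216 and 167 resting and 2 and 4 dividing OPCs that were shallower. In GABAergic cells the thinned shares of Hist3h2ba were 40.3% and 38.9% dividing against 64.9% and 62.3% resting. Its unthinned shares there were 82.5% and 84.2% against 78.5% and 83.9%. The direction of the thinned shares is the same as that of the CPM in both classes, and in GABAergic cells that of the unthinned shares is not. CPM and thinned shares are relative to all UMIs of the cells, and dividing cells were deeper. A fall in them is therefore not by itself a fall in UMIs per cell, which were not compared between states here.

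Among the remaining members, 2 H3 genes of the Hist2 cluster stayed low in both states. Hist2h3c1 had 7 and 10 UMIs in dividing and 30 and 34 in resting OPCs, or 1.05 and 1.08 against 1.61 and 1.61 CPM. Hist2h3c2 had 1 and 1 UMI against 15 and 10, a log2 difference of -2.14 (SE 0.91, edgeR adjusted p = 0.06366) that did not pass. In dividing neurons Hist2h3c2 had 0 UMIs in both libraries, against 5 and 6 at rest, and in astroglia its difference of -0.18 (SE 0.68) did not pass. Each 31-base word of Hist2h3c1 also occurs in another annotated gene.

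The members were also grouped by 3 features of their annotated transcript ends, and in all 4 classes the medians differed for each. Of the tested members, 10 carry the polyadenylation hexamer AATAAA in the last 60 annotated bases, among them Hist3h2ba, Hist3h2a, Hist1h2ae, Hist1h1c and Hist2h2be. Their log2 fold changes in OPCs ranged from -1.10 to 4.51 with a median of 2.11. Those of the other 43 ranged from -2.14 to 5.92 with a median of 3.50, so the ranges overlapped. In astroglia the medians were 0.89 and 3.21, in GABAergic cells 2.15 and 3.50, and in neurons 2.17 and 3.46. For the stem-loop, the 37 tested members with it had a median of 2.91 in OPCs and the 16 without it 4.04, and in astroglia 2.48 and 3.96. Among those with it, the 11 with at least 500 annotated bases after it had a median of 1.98 in OPCs and the 26 with fewer 3.35, and in astroglia 1.44 and 2.92. The 3 features were not separated from each other. These medians are over chosen genes, carry no test, and depend on the annotation of transcript ends.

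The dividing-resting difference itself was compared between classes. Between OPCs and astroglia it was larger in OPCs for 8 of 53 tested members and smaller for 2 (11.3% and 17.0% of all genes). These counts lay near or below the shares over all genes, so they are read as values of single genes only. Without the library term 5 members were called in place of these 10. The 8 included the linker genes Hist1h1a, Hist1h1b, Hist1h1d and Hist1h1e. Hist1h1d was at 43.7 and 31.4 CPM in dividing OPCs and at 50.6 and 33.9 in dividing astroglia, but at 3.11 and 1.85 in resting OPCs against 10.3 and 7.25 in resting astroglia. The difference of its log2 changes was 1.51 (SE 0.19, edgeR adjusted p = 3.308e-08). The levels in dividing cells were alike and those at rest were not.

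Hist2h2ac, an H2A gene of the Hist2 cluster, showed the same order: 30.3 and 28.3 CPM in dividing OPCs, 49.1 and 32.6 in dividing astroglia, 2.14 and 1.23 in resting OPCs and 11.2 and 7.25 in resting astroglia. The difference was 1.86 (SE 0.23, edgeR adjusted p = 2.761e-08). Hist3h2ba and Hist3h2a were the 2 members on the other side, at -1.15 (SE 0.09) and -0.80 (SE 0.13). Between OPCs and GABAergic cells 2 members were on the higher side, Hist1h2ap and Hist1h1c, and 3 on the lower, Hist1h4d, Hist2h2aa1 and Hist2h2be (7.56% and 9.1% of all genes). Both counts lay below the shares over all genes. Between astroglia and GABAergic cells 3 members were on the higher side and 10 on the lower (10.5% and 7.34%), 7 in all without the library term. With RLE factors the split over all genes turned from 1638 against 2472 to 2473 against 1404 between OPCs and astroglia, where the median of all genes moved from -0.05 to 0.10, from 1100 against 1324 to 1316 against 941 between OPCs and GABAergic cells, and from 1524 against 1067 to 1093 against 1378 between astroglia and GABAergic cells, while the member counts were 10 and 2, 3 and 3, and 3 and 10.

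Resting cells of each class were compared with resting neurons. For OPCs, astroglia and microglia the members' counts lay near or below the share over all genes, so they are read as values of single genes only. Resting OPCs had no member above resting neurons and 15 below them (31.6% and 30.2% of all genes), by edgeR at an adjusted p of 0.05. At an unadjusted p under 0.05 there were 16 in either direction, DESeq2 called 0 above and 14 below, and without the library term 9 members were called. Among the 15, Hist3h2ba was at 265 and 255 CPM against 487 and 452 in neurons, a log2 difference of -0.91 (SE 0.05). Hist1h2ae was at 18.8 and 17.5 CPM against 43.2 and 48.4, a difference of -1.41 (SE 0.11, edgeR adjusted p = 8.012e-15). Hist1h2br was at 0.43 and 0.43 against 1.75 and 0.64 CPM, at -1.44 (SE 0.56, edgeR adjusted p = 0.02296). At the ends of the ranking, Hist1h2bk at -1.54 (SE 1.42), on 1 and 1 UMI against 2 and 0, and Hist1h2bh at 1.28 (SE 1.29), on 5 and 5 against 1 and 0, did not pass. Hist1h3g had 1 and 2 UMIs in resting OPCs and 0 in resting neurons.

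Resting astroglia had 13 members above neurons and 5 below (35.5% and 34.0%). Hist1h1e was at 107 and 71.5 CPM against 58.3 and 48.8, a difference of 0.81 (SE 0.08, edgeR adjusted p = 5.439e-12). Hist1h2bc was at 73.4 and 69.3 CPM against 34.99 and 20.1, at 1.49 (SE 0.11). Hist1h2bh, at 2.62 (SE 1.14, edgeR adjusted p = 0.03975), and Hist1h4a, at 2.51 (SE 0.53, edgeR adjusted p = 5.204e-05), were highest, the former on 6 and 9 UMIs against 1 and 0. On the lower side stood Hist3h2ba, at 77.3 and 71.0 CPM, with -2.58 (SE 0.06, edgeR adjusted p = 1.234e-34). Hist1h2ai, at -1.64 (SE 1.01), did not pass.

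Resting GABAergic cells had 14 members above neurons and none below (16.4% and 16.3%), where 17 members reached an unadjusted p under 0.05 in either direction, DESeq2 called 12 above and 0 below, and 7 were called without the library term. Hist3h2ba was at 621 and 590 CPM, 0.44 (SE 0.05) above neurons on the log2 scale, and Hist1h1c at 74.6 and 80.5 CPM against 26.2 and 22.3, at 1.76 (SE 0.12, edgeR adjusted p = 3.058e-16). Hist1h4a, at 2.64 (SE 0.64, edgeR adjusted p = 0.001127), had 8 and 10 UMIs against 3 and 2. Hist1h3g passed on 3 and 1 UMI against 0 and 0, too few for a fold. Hist1h2ad, at -1.38 (SE 1.46), and Hist2h2ab, at -1.07 (SE 1.56), were lowest and did not pass.

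Resting microglia had 6 members above neurons and 6 below (29.1% and 32.4%), and with RLE factors, which moved the median of all genes from -0.23 to -0.09, also 6 and 6. Hist1h2bc was at 126 and 73.6 CPM, 2.33 above neurons (SE 0.19, edgeR adjusted p = 1.494e-14), and Hist1h1c at 113 and 78.8 CPM, 2.44 above (SE 0.16, edgeR adjusted p = 4.683e-17). Hist1h4a was 2.65 above (SE 1.05) on 2 and 2 UMIs. Hist3h2ba was at 29.4 and 22.5 CPM, a log2 difference of -3.72 (SE 0.13) from neurons, the lowest of the resting classes. Hist1h2bb and Hist1h2ak had 0 UMIs in resting microglia of both libraries and did not pass, and Hist1h3g had 1 and 0.

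In order of the level at rest, Hist3h2ba thus ran from GABAergic cells to neurons, OPCs, astroglia and microglia, with no overlap between libraries of neighbouring classes. At 2000 UMIs per cell it was seen in 64.9% and 62.3% of resting GABAergic cells, 55.9% and 56.2% of neurons, 37.9% and 39.2% of OPCs, 15.1% and 13.4% of astroglia and 8% and 3.45% of microglia. Before thinning the shares were 78.5% and 83.9%, 77.1% and 85.0%, 71.9% and 76.4%, 34.7% and 38.3%, and 26.3% and 24.1%. Exact binomial 95% intervals of the microglial shares were 2.99% to 16.6% and 0.717% to 9.75%. For Hist1h2ap the thinned shares in resting cells were 6.06% and 5.74% in OPCs and 5.33% and 5.75% in microglia (1.47% to 13.1% and 1.89% to 12.9%). The OPC share lay within these wide intervals and is not read as a trait of OPCs. Resting GABAergic cells had 12.8% and 12.5%. The source of these UMIs in resting cells was not tested. Hist1h2ap was seen in 49.8% and 50.9% of dividing OPCs on the same footing, and unthinned in 67.5% and 70.2% of dividing, 17.9% and 21.2% of resting OPCs and 18.8% and 24.1% of resting microglia.

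**Figure D3:**
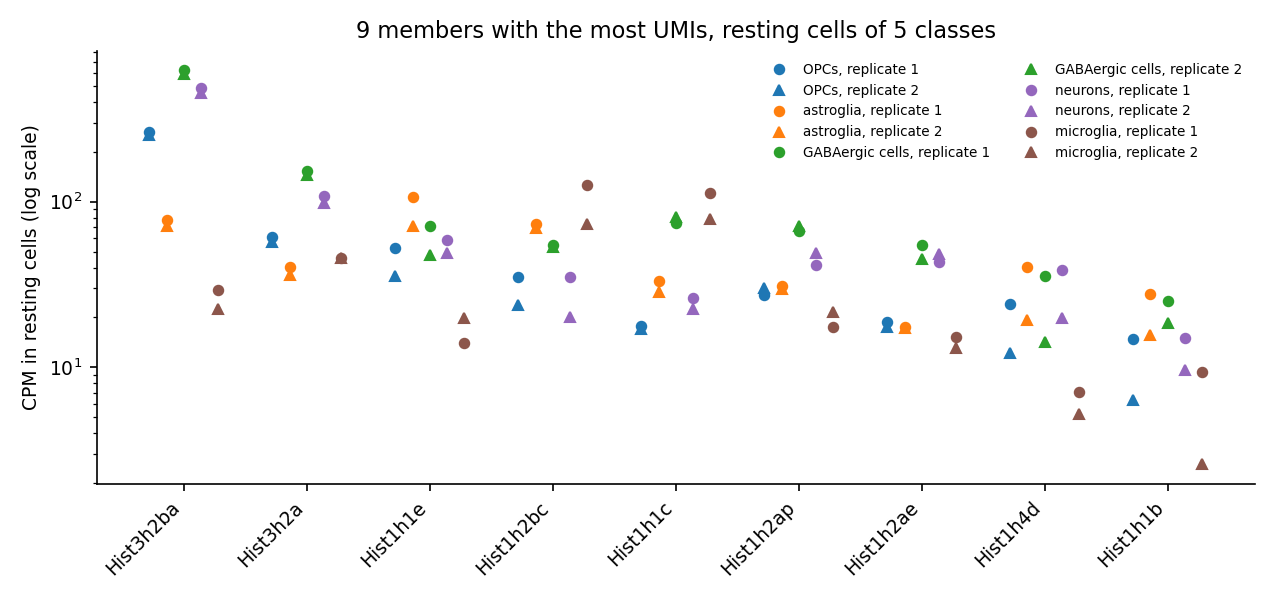
CPM (log scale) of the 9 members with the most UMIs in resting cells of 5 classes (colours); each point is 1 library (circle replicate 1, triangle replicate 2). Hist3h2ba spans from below 30 CPM in microglia to about 600 in GABAergic cells, and the highest single points of Hist1h2bc and Hist1h1c are those of microglia in replicate 1.

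Dividing cells differed among themselves. In UMIs of all members per 10000 UMIs of the cell, dividing OPCs had a median of 17.0 and 10.1, from 2.29 and 2.23 at the 10th percentile to 76.3 and 74.4 at the 90th. Resting OPCs had medians of 5.20 and 4.74. Dividing GABAergic cells had medians of 50.5 and 43.7 against 11.1 and 10.5 at rest. The low end of dividing OPCs lay below the resting median.

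Levels differed with the count of Mki67 and Top2a. OPCs with 3 to 5 such UMIs had 590 and 495 CPM of members, against 579 and 502 in resting OPCs, above in replicate 1 and below in replicate 2. With 6 to 10 UMIs they had 1670 and 1121 CPM, with 11 to 20 they had 4336 and 2927, and above 20 they had 5152 and 4549. GABAergic cells with 3 to 5 such UMIs had 3159 and 1750 CPM, against 1276 and 1180 at rest. With 6 to 10 they had 5828 and 4889, with 11 to 20 they had 6653 and 5664, and above 20 they had 5557 and 5137. These sums include the Hist3 pair, which was lower in dividing than in resting cells of both classes. Sums of these bins without the pair were not computed. The bins are raw UMIs at unlike depth. In the bin of 3 to 5 the median depth was 6511 and 6586.5 UMIs in GABAergic cells and 10603 and 11340 in OPCs. The part of depth in this difference between classes was not tested. Near the boundary, 55 and 76 dividing OPCs had exactly 3 UMIs and 139 and 153 OPCs, counted in neither state, had exactly 2.

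Position in the cycle was read from 28 S phase genes, such as the Mcm helicase genes and Pcna, and 36 G2/M genes, such as Ccnb1 and Plk1. Dividing cells with at least 2 times as many UMIs of one list as of the other are called S-rich or G2/M-rich, and the rest mixed. Member sums were highest in mixed cells of all 3 classes: 5541 and 5540 CPM in mixed OPCs, against 1174 and 1077 in S-rich and 2877 and 2694 in G2/M-rich OPCs. Mixed astroglia had 5746 and 4476 CPM against 2540 and 1737, and 2188 and 2071. Mixed GABAergic cells had 8165 and 7688 CPM against 4823 and 4017, and 4536 and 3747. Mixed cells were not tested, since the comparison planned was between the ends.

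**Figure D4:**
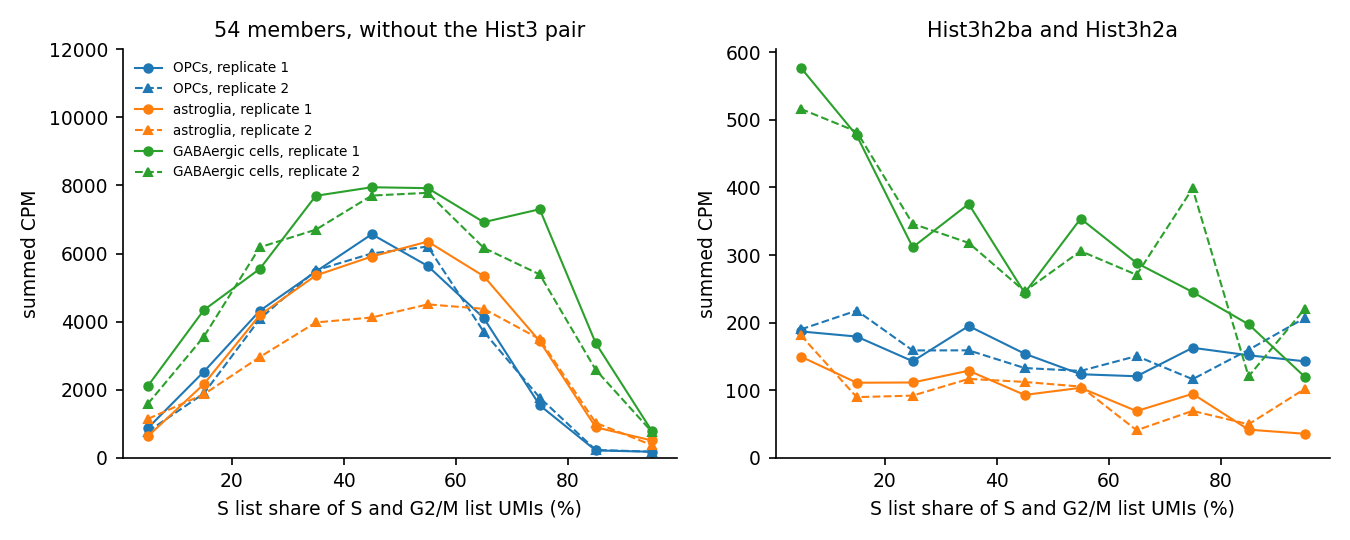
Summed CPM of the members without the Hist3 pair and of the Hist3 pair alone, against the share of S list UMIs among S and G2/M list UMIs (%) in dividing cells, in bins of 10 points; colours are OPCs, astroglia and GABAergic cells, solid lines replicate 1 and dashed lines replicate 2. The members without the pair form a hump between 40 and 60% in OPCs and fall to the left and right, and the Hist3 pair shows no such hump.

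In finer bins the members without the Hist3 pair were at 874 and 772 CPM in OPCs with under 10% S list UMIs, at 6567 and 6003 CPM from 40 to 50%, at 5635 and 6204 from 50 to 60%, and at 218 and 231 CPM from 80 to 90%. The last value is close to that of resting OPCs, 253 and 190 CPM. In those bins the Hist3 pair stood at 187 and 190, 154 and 133, 124 and 129, and 152 and 160 CPM. GABAergic cells had 7947 and 7703 CPM of the other members from 40 to 50% and 797 and 771 above 90%, where each library held 13 cells. The Mcm genes of the S list are known to be expressed from late G1.

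Between S-rich and G2/M-rich cells, 44 members were tested over OPCs, astroglia and GABAergic cells. Only Hist1h3a and Hist1h4a were higher in S-rich cells and 19 were lower, against 13.7% and 12.7% of all genes. Hist1h3a, by 0.80 (SE 0.22, edgeR adjusted p = 0.009557), was at 48.3 and 16.8 CPM in S-rich against 13.5 and 11.9 in G2/M-rich GABAergic cells, but at 7.1 and 5.2 against 7.8 and 3.1 in OPCs. Hist1h4a differed by 0.80 (SE 0.23, edgeR adjusted p = 0.01422). Among the 19, Hist1h2bc fell by 1.84 (SE 0.23, edgeR adjusted p = 6.063e-06), from 78.4 and 72.8 CPM in G2/M-rich to 12.9 and 11.5 in S-rich OPCs. Hist1h1c fell by 1.43 (edgeR adjusted p = 4.35e-07), from 77.4 and 65.1 to 17.1 and 19.7 CPM in OPCs.

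Hist3h2a and Hist3h2ba were also among the 19, at -1.22 and -0.66. Hist1h2ap did not pass: it was at 339 and 449 CPM in S-rich, 1864 and 2427 in mixed and 711 and 998 in G2/M-rich OPCs. In astroglia and GABAergic cells its S-rich values lay above its G2/M-rich ones, at 734 and 658 against 434 and 566, and at 1239 and 1635 against 1000.5 and 1052 CPM. The classes thus differed in order at the ends and shared the maximum in mixed cells.

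The resting gate can hold cells that have begun S phase. Among cells without Mki67 or Top2a, S-marked cells (at least 8 S list UMIs and 1000 CPM of the list) were compared with S-low cells (under 500 CPM). Of 20 tested members, 2 were higher and 4 lower in S-marked cells, against 9.84% and 7.91% of all genes. The higher ones were Hist1h4a, by 1.09 (SE 0.32, edgeR adjusted p = 0.02404), and Hist1h1b, by 0.55 (SE 0.16, edgeR adjusted p = 0.0244). Hist1h1c, Hist1h2ac, Hist3h2a and Hist3h2ba were lower, with log2 differences of -0.93, -0.87, -0.70 and -0.50. Sums without the Hist3 pair, itself lower in S-marked cells, are not given here. Member sums with the pair were lower in S-marked than in S-low cells in both libraries of each class. They were 487 and 423 against 610 and 526 CPM in OPCs, 506 and 391 against 567 and 451 CPM in astroglia, and 1001 and 840 against 1355 and 1224 CPM in GABAergic cells.

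Other genes of histone supply were counted from lists set up with the members. Of 11 replication-independent histone genes, 8 rose and 1 fell in dividing OPCs (10 rose in astroglia, 9 in GABAergic cells and 7 in neurons), with a median of 1.06. Cenpa, the centromeric H3 variant, rose by 4.27 (SE 0.07), and H2afx, the variant phosphorylated at DNA breaks, by 2.47 (SE 0.06). H2afj fell by 0.27 (SE 0.06). Between S-rich and G2/M-rich cells 1 of the 11 was higher and 8 were lower, Cenpa by a log2 difference of -4.95.

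Of 16 genes of histone transcription and 3′ end processing, 15 were tested. In dividing OPCs 10 rose and 1, Mif4gd, fell by 0.39 (SE 0.10). In astroglia 12 rose, in GABAergic cells 9 and in neurons 6. Slbp rose by 1.47 (SE 0.06), Eri1, an exonuclease that trims the stem-loop end, by 1.41 (SE 0.08), Casp8ap2, a histone locus body protein, by 1.15 (SE 0.07) and Npat by 0.94 (SE 0.09). Between phases, 6 of these genes were higher in S-rich than in G2/M-rich cells, Slbp by 1.63 (SE 0.10, edgeR adjusted p = 1.966e-10).

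Of 17 histone chaperone and acetylation genes, 15 rose and 1, the importin Ipo4, fell in dividing OPCs (17 rose in astroglia, 15 in GABAergic cells and 13 in neurons). Asf1b, which carries H3 and H4, rose by 4.52 (SE 0.16), Chaf1b and Chaf1a, subunits of the chromatin assembly factor CAF-1, by 2.69 and 2.51, and Hjurp, the Cenpa chaperone, by 2.15. Chaf1b was 3.09 higher in S-rich than in G2/M-rich cells (SE 0.11). These counts stand against the shares of all genes given for the same comparisons.

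Between the libraries, most members were higher in replicate 1. With 1 library on each side there is no test. Of 56 members, 36 had at least 1.2 times the CPM in replicate 1 over whole libraries, against 4.04% of 16073 genes, and 2 had at least 1.2 times the CPM in replicate 2, against 11.9%. Hist1h4d was at 83.6 CPM in replicate 1 (exact Poisson 95% interval 81.6 to 85.6) and 40.6 (39.3 to 41.9) in replicate 2, a ratio of 2.06. Its ratio was above 1 in 8 of 8 class and state sums and lay between 1.98 and 2.13 in dividing OPCs, astroglia and GABAergic cells. Hist1h1b, at 160 and 99.8 CPM, had a ratio of 1.60, and Hist1h1e, at 122.6 and 86.1 CPM, of 1.42, each above 1 in 8 of 8 sums.

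Hist1h2ap went the other way, at 279 (276 to 283) and 337 (333 to 341) CPM, a ratio of 0.830, and was higher in replicate 1 in 1 of 8 sums. Hist3h2ba, at 221 and 211 CPM, and Hist3h2a, at 57.0 and 54.9 CPM, were nearly equal at ratios of 1.04. Hist1h2af and Hist2h2bb had ratios of 2.00 and 1.81. Intervals cover counting error only. Replicate 2 was deeper by median UMIs, and the part of depth in these ratios was not tested.

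**Figure D5:**
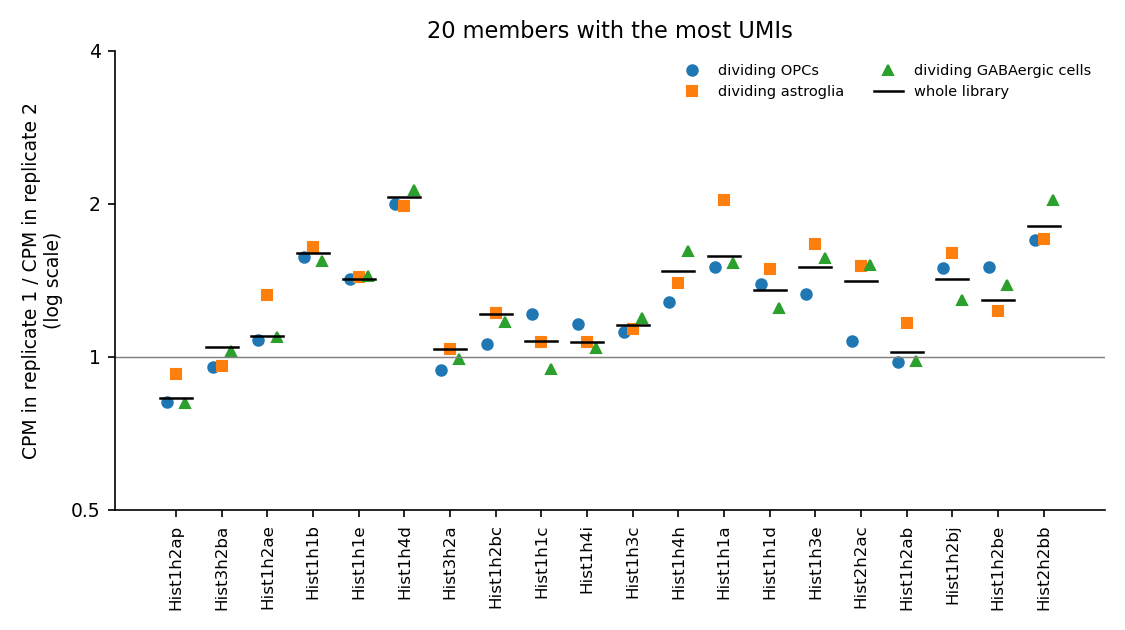
CPM in replicate 1 divided by CPM in replicate 2 (log scale) for the 20 members with the most UMIs; black bars are whole libraries and symbols are dividing OPCs, astroglia and GABAergic cells. Hist1h4d lies near 2 and Hist1h2ap below 1 in all 3 classes, with the Hist3 pair near 1.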

How the data were processed

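The authors deposited, for 2 mouse single-cell RNA libraries, raw UMI counts in sparse matrices whose file headers name Cell Ranger 6.0.2. Per the submitters' processing notes, mm10 was the build, and Seurat 4.1.0 and R 4.1.0 are listed with no role. Which gene annotation was counted is not given there. Barcodes with at least 500 genes and at most 10% mitochondrial UMIs were kept and doublets removed with Scrublet (scanpy 1.11.5, expected rate 10%). Gates needed at least 2 UMIs of Pdgfra, of Dlx1 and Dlx2, or of Neurod2 and Neurod6, 3 of Slc1a3, or 5 of 5 microglial genes, with other gates low. UMIs were summed per library, class and state (sums of at least 20 cells) and tested with edgeR 4.0.16 (R 4.3.3; TMM, filterByExpr, library as block, because both sums come from the same sorted cells), with 18 sums and 8 residual degrees of freedom. SE is the size of the log2 change divided by the root of F. Of 32285 gene rows, 32158 matched GENCODE M21 by ID. DESeq2 1.42.0, RLE factors, no low-count filter, stricter gates, a depth window, another division boundary, doublets kept and no block were alternatives. The test was checked on simulated counts. Named members were those with the most UMIs and the extremes of each contrast. The members, lists and rules were chosen with earlier results of these data known.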

Additional observations from a re-analysis of the deposited data

Results flagged for a closer look

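For some members the change from resting to dividing cells differed between cell classes by edgeR's test of that difference, with a Benjamini-Hochberg adjusted p under 0.05 over all genes. The shares over all genes are given above, and the member counts in the comparisons with OPCs lay near or below them. Values are differences of log2 changes, the first class minus the second. Between OPCs and GABAergic cells they were -1.99 for Hist2h2be, -1.47 for Hist2h2aa1, -0.87 for Hist1h4d, 0.62 for Hist1h2ap and 0.80 for Hist1h1c.

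Between OPCs and astroglia the difference was -1.15 for Hist3h2ba and -0.80 for Hist3h2a. On the other side it was 0.30 for Hist1h4d, 0.35 for Hist1h2ap, 0.77 for Hist1h1e, 0.81 for Hist1h1b, 1.14 for Hist1h1a, 1.51 for Hist1h1d, 1.86 for Hist2h2ac and 2.55 for Hist2h4. The value of Hist1h4d was called the same way in 4 of 8 alternatives, with adjusted p from 3.036e-06 to 0.8026.

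Between astroglia and GABAergic cells the difference was -2.45 for Hist1h2bf, -1.81 for Hist2h2aa1, -1.68 for Hist2h2be, -1.58 for Hist1h3d, -1.16 for Hist2h2ac and -1.16 for Hist1h4d. Linker genes had -1.14 (Hist1h1a), -0.9999 (Hist1h1e), -0.9964 (Hist1h1d), -0.51 (Hist1h1b) and 0.60 (Hist1h1c). The Hist3 pair had 0.53 (Hist3h2a) and 1.04 (Hist3h2ba). Hist1h2bf and Hist1h1b were called the same way in 5 of 8 alternatives.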

How the results depend on the processing

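Without the replicate block, the calls fell from 15 to 9 members for resting OPCs against neurons, from 14 to 7 for resting GABAergic cells against neurons, from 10 to 5 for the difference between OPCs and astroglia and from 13 to 7 for that between astroglia and GABAergic cells. The block is the library that both sums of a pair come from. With dividing cells defined at 6 UMIs, the difference between OPCs and GABAergic cells had 10 called members in place of 5, and the mean summed CPM was 3764 in dividing OPCs and 3370 in dividing astroglia. With doublets kept it was 2788 in dividing OPCs, and with stricter gates 1317 in resting GABAergic cells. In cells of 5000 to 15000 UMIs it was 2256 in dividing astroglia, 5997 in dividing GABAergic cells and 4307 in dividing neurons. There the difference for Hist1h2ae between astroglia and GABAergic cells turned to -0.69. The cause of these shifts was not tested. Over 171 named changes and 1473 alternatives, 1307 kept direction and side of the threshold, 58 were no longer called, 31 were newly called, 76 moved with no test and 1 reversed. Leaving out a library leaves no test. Dividing neurons could not be fitted with stricter gates, in the depth window or at 6 UMIs, with under 20 cells in a sum. Depth limits members with few UMIs, such as Hist1h3g.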
